A study of Mus musculus with 12 samples.

Results

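Replication-dependent histone genes encode the histones that package newly copied DNA. They were taken as the protein-coding genes of GENCODE M21 whose symbols start with Hist1h, Hist2h, Hist3h or Hist4h, without use of any measured value. The annotation holds 67 such genes, and 65 of them are among the 51826 genes of the count table. The remaining 2, Hist1h2bh and Hist1h2bm, are not analysed here. By type, 6 encode the linker histone H1, 18 encode H2A, 16 encode H2B, 12 encode H3 and 13 encode H4. On the GRCm38 build, 52 belong to the Hist1 cluster on chromosome 13, 10 to Hist2 on chromosome 3, 2 to Hist3 on chromosome 11 and 1 is the lone Hist4h4 on chromosome 6. The Hist1 genes fall into 2 stretches, chr13:21715763-22043676 and chr13:23531050-23934851.

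In the nucleosome, DNA is wrapped around a core of H2A, H2B, H3 and H4, and H1 binds the linker DNA between cores. The genes of this family are switched on together as cells enter S phase, when NPAT drives their transcription at histone locus bodies. Their transcripts mostly carry no poly(A) tail and end just after a short stem-loop, which is bound by SLBP and cut by a machinery that includes the U7 particle, and they are degraded when DNA synthesis stops. Replacement histones such as H2A.Z, H3.3 and H1.0 are made from polyadenylated transcripts outside S phase as well.

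RNA was measured in 12 lines of pre-B cells, precursors of B lymphocytes, which need interleukin 7 (IL7) to grow in culture. Marrow of 2 wild-type C57BL/6 mice was grown with IL7 for 7 days and transduced with an empty retroviral vector (EV) or with one carrying the BCR-ABL1 fusion kinase of Philadelphia chromosome-positive leukemia, and all cells kept IL7 for a further 48 h. Each mouse gave 3 EV lines, which stayed in IL7 and were sorted for the GFP of the vector, and 3 BCR-ABL1 lines, from which IL7 was withdrawn for 1 week. BCR-ABL1 and IL7 withdrawal therefore cannot be told apart. Lines are named by mouse and letter, so that EV 2C is the third EV line of mouse 2. The libraries were made from total RNA, not by capture of poly(A), which is what allows these transcripts to be counted. The lines of one mouse are not separate animals, so p-values measure the spread between lines.

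Each line had between 34791011 and 66011225 counts on genes, of which histone genes held between 1861534 and 3007287. All 10 markers of the B lineage were present, with a summed level between 4081 and 8216 CPM (counts scaled to the size of the library), whereas the 10 myeloid markers summed to at most 1.78 CPM and Elane, S100a8, S100a9 and Cd14 stayed at or below 3 counts in every line. Erythroid, mast cell and basophil, and stromal markers summed to at most 12.7, 0.951 and 2.12 CPM. The 10 T and NK cell markers summed to between 67.4 and 146 CPM, most of it from Lck, which was at 61.4 to 123 CPM over all lines. Of the 4 tested, edgeR called Trac and Cd3d lower in BCR-ABL1 lines, where Trac had 0.213 to 1.34 CPM while EV lines held 9.99 to 41.1 CPM of it. The 3 EV lines of mouse 2 were spread more widely than the others, with a biological coefficient of variation of 0.386 against 0.0844 to 0.103 in the other groups of 3 lines. EV line 2C stood apart from EV 2A and 2B. The calls on histone genes between the conditions over both mice, between the EV groups and for the interaction were repeated without it. The comparison within mouse 2, the gene lists and the means of shares were not.

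The stem-loops are shown because they are the feature that sets these transcripts apart from other mRNA. The pattern searched was GGNNNNTTTNNNNNCC on the transcript strand with the 6 bases on either side of the loop able to pair, G with T allowed, in the transcript after the stop codon. It was found in 42 of the 65 genes, and in 44 of the 67 with Hist1h2bh and Hist1h2bm counted, at 21 to 58 bases after the stop codon with a median of 31 bases. Of the 23 genes without it, 15 have gene models that end within 5 bases of the stop codon and so cannot hold it. In 6 others the model runs at least 74 bases past the stop codon, and the pattern was not found. Anywhere in a transcript it was found in 0.589% of the 21884 other protein-coding genes. There were 6 different stem-loops, and 1 gene of each is printed here from GENCODE M21 on GRCm38, 5′ to 3′, with the 16 bases of the stem-loop in capitals and 5 flanking bases on each side.
Hist3h2ba (H2B, chr11:58949344-58949369, plus strand): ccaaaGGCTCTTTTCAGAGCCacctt
Hist1h4h (H4, chr13:23531453-23531478, plus strand): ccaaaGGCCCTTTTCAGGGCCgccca
Hist1h2bb (H2B, chr13:23747198-23747223, plus strand): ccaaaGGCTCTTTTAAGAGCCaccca
Hist2h4 (H4, chr3:96262934-96262959, minus strand): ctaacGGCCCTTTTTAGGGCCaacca
Hist1h4j (H4, chr13:21735432-21735457, plus strand): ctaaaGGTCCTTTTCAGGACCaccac
Hist2h2ac (H2A, chr3:96220413-96220438, minus strand): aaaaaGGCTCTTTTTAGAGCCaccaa

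Among the 44 genes, the form printed for Hist3h2ba was the commonest and was found in 26, Hist1h2bh and Hist1h2bm included, of the H1, H2A, H2B and H3 types. The form of Hist1h4h was found in 7 genes, that of Hist2h4 in 2 and that of Hist1h4j in 2, and these 3 forms occurred only in H4 genes among the members. The form of Hist1h2bb was found in 6 genes of the H1, H2B and H3 types and that of Hist2h2ac in that gene alone. Hist3h2ba, to which most of the later results return, therefore carries the same 16 bases as the abundant Hist1h3a and Hist1h1c.

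Promoters from 250 bases before to 50 bases after the RefSeq start were available for 59 of the 65 genes. The octamer ATTTGCAT, the site known for Oct proteins in H2B promoters, was found on either strand in 7 of 17 H2A and 5 of 14 H2B promoters and in 0 of the H1, H3 and H4 promoters, against 1.735% of all 32851 promoters. Some matches are the same site counted for both genes, since neighbours on opposite strands such as Hist1h2ae and Hist1h2bg have overlapping promoters. The CCAAT box was found in all H1, H2A, H2B and H3 promoters with a RefSeq entry and in 3 of 12 H4 promoters, against 37.408% of all promoters. TATAAA was found in 35 of the 59, against 13.616% of all. The promoters of both Hist3 genes are printed because Hist3h2ba had the largest difference between the conditions among the members and Hist3h2a lies beside it. They are RefSeq sequences of GRCm38.p6, plus strand, with matches to the 3 motifs on either strand in capitals.
Hist3h2ba (chr11:58948661-58948960): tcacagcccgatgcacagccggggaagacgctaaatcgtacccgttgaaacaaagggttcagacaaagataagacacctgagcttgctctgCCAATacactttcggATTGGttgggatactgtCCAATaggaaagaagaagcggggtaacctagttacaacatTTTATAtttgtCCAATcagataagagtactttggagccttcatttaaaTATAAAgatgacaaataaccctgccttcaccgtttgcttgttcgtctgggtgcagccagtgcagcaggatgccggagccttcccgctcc
Hist3h2a (chr11:58954435-58954734): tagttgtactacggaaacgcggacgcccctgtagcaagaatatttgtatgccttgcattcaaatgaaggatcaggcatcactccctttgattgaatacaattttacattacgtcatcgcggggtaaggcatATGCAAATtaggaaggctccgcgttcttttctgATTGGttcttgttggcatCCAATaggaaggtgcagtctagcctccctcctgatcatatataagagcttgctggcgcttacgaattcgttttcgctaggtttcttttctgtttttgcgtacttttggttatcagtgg

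The Hist3h2ba promoter holds CCAAT boxes and TATAAA but not the octamer, and that of Hist3h2a holds the octamer and CCAAT boxes but not TATAAA. A match of letters is a description and not a bound site.

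Histone coding sequences are much alike, so reads of one gene can match another. Of the windows of 150 bases, the read length, 12 genes had every window found in no other gene and 53 shared at least 1 window. A match on either strand counted as shared. In 24 genes under 50% of windows were found in no other gene. Hist2h2aa1, Hist2h2aa2, Hist2h3b, Hist2h3c1 and Hist2h2bb had 0% such windows, being matched by copies or by overlapping genes. How reads with several matches were counted is not given in the sources used here, so the values of these genes are uncertain one by one. Types differ in how much sequence their genes share, so levels of types against each other are uncertain as well. In addition, 7 genes overlap another gene on their own strand and 21 on the other strand, and the strand setting of the counting is not given either.

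After filtering of low counts, 60 of the 65 genes were tested among 15038 genes. The 5 genes left out were Hist1h1t, Hist1h2aa and Hist1h2ba, which are known from the testis, Hist2h2aa1 and Hist2h3c1. Hist2h3c1 was at 0 counts in every line. By level per kilobase (kb) of exon, H4 and H3 genes had the highest medians, with 1732 and 1662 CPM per kb, followed by H1 with 1376, H2B with 1060 and H2A with 765 CPM per kb. The highest gene of each type was Hist1h4h with 4146, Hist1h2bb with 3755, Hist1h2ak with 2652, Hist1h3a with 2493 and Hist1h1b with 1998 CPM per kb. No single gene dominated, since 15 genes were needed to reach 50% of the histone counts. Levels below 100 CPM per kb were measured for 9 genes, among them Hist3h2ba with 11.1, Hist2h2be with 9.06 and Hist3h2a with 5.22 CPM per kb. A long annotated exon lowers the level per kb of genes such as Hist4h4, for which most of the model lies beyond the stem-loop. The order of the types may also depend on how reads of shared sequence were counted, which was not tested.

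**Figure D1:**
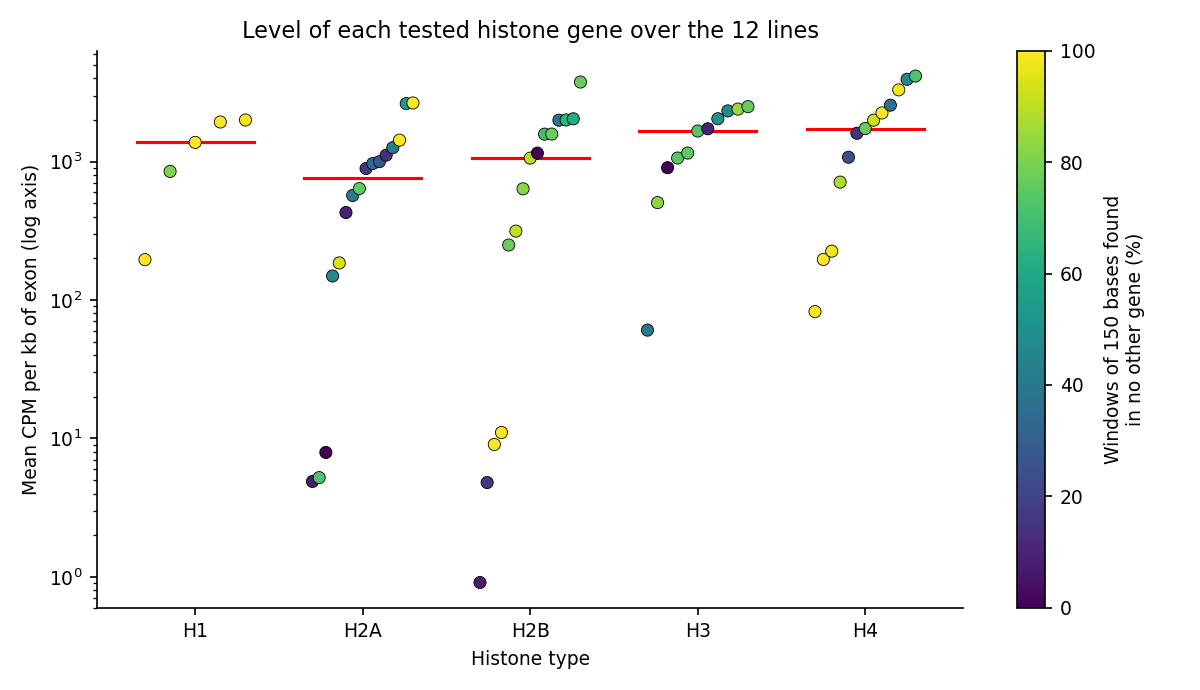
Mean level of the 60 tested histone genes over the 12 lines, in CPM per kb of exon on a log axis, by histone type. Each point is a gene, its color gives the percentage of 150-base windows found in no other gene, and the red line is the median of the type. Most genes of every type lie between 100 and 4146 CPM per kb, and 9 genes lie below 100.

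Histone genes held a similar share of counts in both conditions, but the EV lines of the 2 mice lay apart. In EV lines of mouse 1 the share was 3.80%, 3.93% and 3.95%. In EV lines of mouse 2 it was 5.94%, 5.52% and 5.14%. BCR-ABL1 lines held 4.92%, 4.88% and 5.05% in mouse 1 and 5.003%, 4.40% and 4.24% in mouse 2. Every EV line of mouse 1 thus lay below all BCR-ABL1 lines and every EV line of mouse 2 above them, and the BCR-ABL1 lines of both mice overlapped. The means of the conditions were 4.71% ± 0.933 (SD, n = 6) for EV and 4.75% ± 0.342 (SD, n = 6) for BCR-ABL1. The share is a sum over chosen genes and was not tested. The mean of the EV lines of mouse 2 was 1.42 times that of mouse 1. It was 1.49 times with counts of non-mitochondrial protein-coding genes as the total, and 1.60 times over the 21 histone genes left when the 408 genes with the most counts were removed.

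Composition by type moved within narrow ranges. Of all histone counts, H4 held between 25.1% and 29.2%, H3 between 20.4% and 23.3%, H2B between 17.8% and 21.3%, H1 between 15.6% and 18.6% and H2A between 12.7% and 16.01%. These are shares of the deposited counts, in which reads of shared sequence may weigh differently by type. For H2A the EV lines of mouse 2, at 12.7% to 13.2%, lay below the 9 other lines, at 14.1% to 16.01%. Every type held more of all counts in the EV lines of mouse 2, H2A the least so, with 0.587% ± 0.0192 in mouse 1 and 0.718% ± 0.0612 in mouse 2 (SD, n = 3 each). The H1 genes, for example, held 0.655% ± 0.0444 (SD, n = 3) of counts in EV lines of mouse 1 and 0.981% ± 0.149 (SD, n = 3) in those of mouse 2, and the H4 genes 1.08% ± 0.0952 and 1.56% ± 0.105 (SD, n = 3 each).

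Shares of other groups of genes were read beside the histone share. The 46 S phase genes, such as those of the Mcm helicase, held 0.942% to 1.06% in EV lines of mouse 1, 0.539% to 0.833% in those of mouse 2 and 0.859% to 0.939% in BCR-ABL1 lines. For the 15 mitosis genes the ranges were 0.573% to 0.604%, 0.379% to 0.414% and 0.529% to 0.587%. Both lists were thus lowest in the EV lines where the histone share was highest. Transcripts of Rn7sk, Rmrp and Rpph1, which like histone transcripts have no poly(A) tail, held 3.14% to 3.72% in EV lines of mouse 1, 9.45%, 7.31% and 2.65% in EV 2A, 2B and 2C, and 1.60% to 2.34% in BCR-ABL1 lines. In EV 2C they were below the EV lines of mouse 1 while the histone share was above them. Small nuclear and nucleolar RNA genes held 0.144% to 0.209%, 0.228% to 0.319% and 0.169% to 0.203%. Of the 10 B lineage markers, 8 were higher on average in EV lines of mouse 2 than of mouse 1, with a median log2 difference of 0.65, and edgeR called Vpreb1 and Igll1, the genes of the surrogate light chain, higher. Their median interaction of mouse and condition was -0.85, with the same 2 genes called. The part of these differences in the histone values was not tested. In bulk RNA, fewer cells in a phase and less RNA per cell cannot be told apart.

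**Figure D2:**
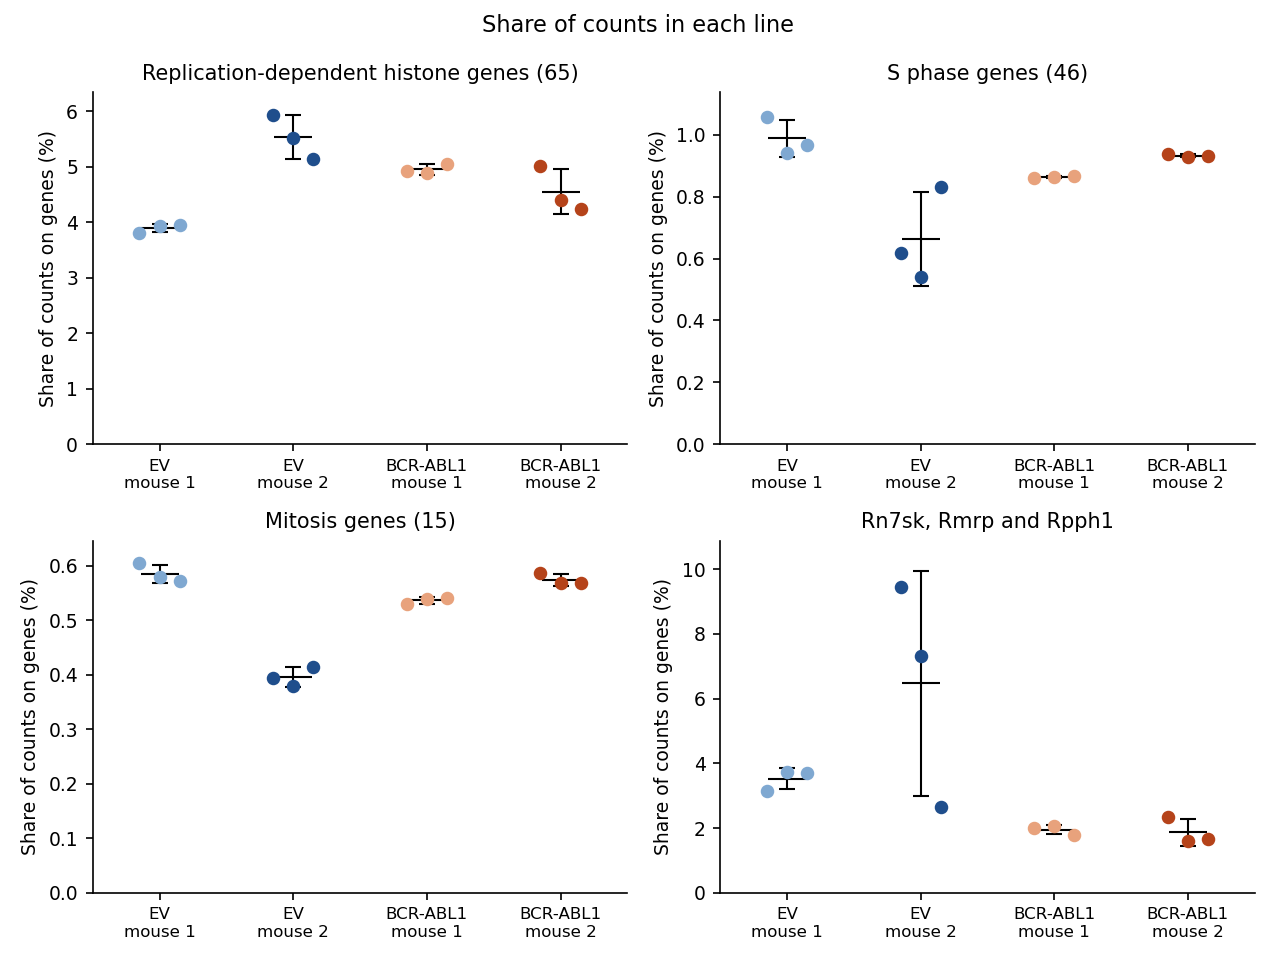
Share of all counts on genes (%) in each of the 12 lines, for the 65 histone genes, 46 S phase genes, 15 mitosis genes, and Rn7sk, Rmrp and Rpph1 together. Points are lines, horizontal bars are means of 3 lines and error bars are SD. The histone share is lowest in EV lines of mouse 1, at 3.80% to 3.95%, and highest in EV lines of mouse 2, at 5.14% to 5.94%, whereas S phase and mitosis genes are lowest in EV lines of mouse 2.

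To see which histone genes differed between transformed and control cells, all 6 BCR-ABL1 lines were compared with all 6 EV lines. Hist3h2ba, an H2B gene of the Hist3 cluster, was the single histone gene that passed the test, and it rose. Of the 60 tested, 1 was called higher and 0 lower by edgeR (glmTreat against a 1.5-fold change, adjusted p under 0.05), whereas 5.99% of all tested genes were called higher and 6.49% lower. At an unadjusted p under 0.05 the numbers were also 1 and 0, against 1473 and 1689 of all 15038 genes. DESeq2 gave 1 and 0, and 795 and 651 over all genes. Against no change, edgeR called 3 higher and 2 lower, and 3389 and 3897 over all genes. Hist2h2ab and Hist2h2be were the 2 lower histone genes. The median difference of the 60 genes was 0.07 on the log2 scale, with 37 positive, against -0.02 over all genes, of which 48.3% were positive. Hist3h2ba was also the single gene with all BCR-ABL1 lines above all EV lines, an order found for 12.1% of all genes, and 0 of the 60 had all BCR-ABL1 lines below, against 13.5%.

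Abundant histone genes overlapped between the conditions. Hist1h4h was at 1346, 2019 and 2657 CPM (lowest, median and highest line) in EV and at 1566, 1896 and 2167 CPM in BCR-ABL1, a log2 difference of -0.09 ± 0.18 (SE, edgeR adjusted p = 1.00). Hist1h3a was at 1036, 1213 and 1718 CPM in EV and at 1207, 1392 and 1444 CPM in BCR-ABL1, a log2 difference of 0.06 ± 0.13 (SE, edgeR adjusted p = 1.00). Hist1h2bb was at 1347, 1860 and 2679 CPM in EV and at 1531, 1898 and 2062 CPM in BCR-ABL1, with a log2 difference of -0.10 ± 0.19 (SE, edgeR adjusted p = 1.00). In each case the BCR-ABL1 lines lay within the range of the EV lines. The SE, here and throughout, was computed from the log2 CPM of the lines and is not that of the fitted difference. Also for Hist1h2ak the log2 difference was 0.12 ± 0.09 and for Hist1h1b -0.01 ± 0.13 (SE, edgeR adjusted p = 1.00 for both). The other abundant genes named by level, Hist1h4k, Hist1h4f, Hist1h3c, Hist1h3i, Hist1h2ab, Hist2h2ac, Hist1h2bg, Hist1h2bn, Hist1h1a and Hist1h1c, had log2 differences between -0.14 and 0.14, and none was called.

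Outside the Hist1 cluster, Hist2h2be and Hist2h2ab had the most negative values of all. Hist2h2be is an H2B gene with a long model in which the stem-loop pattern was not found. It was at 34.3, 30.9 and 34.8 CPM in EV lines of mouse 1. In EV lines of mouse 2 it was at 28.4, 34.1 and 15.1 CPM. BCR-ABL1 lines were at 16.8, 21.4 and 18.8 CPM in mouse 1 and at 20.2, 14.96 and 15.02 CPM in mouse 2. All BCR-ABL1 lines were thus below 5 of the 6 EV lines, and EV 2C lay among them. The log2 difference was -0.73 ± 0.21 (SE, edgeR adjusted p = 0.352, exact two-sided permutation p = 0.0108), and without EV 2C it was -0.86 with an edgeR adjusted p of 0.0217. The overlap in Hist2h2ab, an H2A gene that shares windows with Gm15444, was also small, with 86.2 to 96.6 CPM in EV lines of mouse 1, 61.5 to 79.5 CPM in EV lines of mouse 2 and 42.0 to 62.9 CPM in BCR-ABL1 lines. Its log2 difference was -0.64 ± 0.14 (SE, edgeR adjusted p = 0.507).

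Hist3h2ba was nearly undetected in EV lines of mouse 1. Its counts there were 0, 1 and 1, which is 0, 0.0144 and 0.0154 CPM, and all lie under the floor of 3 counts. EV lines of mouse 2 had 0.889, 0.596 and 0.144 CPM. BCR-ABL1 lines had 6.63, 17.99 and 15.4 CPM in mouse 1 and 12.6, 13.6 and 13.5 CPM in mouse 2. Every BCR-ABL1 line was therefore above every EV line, and the 3 groups of EV mouse 1, EV mouse 2 and BCR-ABL1 did not overlap. The log2 difference between the conditions was 5.67 ± 0.84 (SE, edgeR adjusted p = 0.00204, exact two-sided permutation p = 0.00216, the smallest that 6 lines against 6 can give). With mouse as replicate block the adjusted p was 0.000488, and again 1 of the 60 was called higher and 0 lower, against 7.49% and 7.18% of all genes. From summed counts, the level in BCR-ABL1 lines was 61.6 times that in EV lines (95% interval 48.6 to 79.4), 27.4 times within mouse 2 (21.5 to 35.5) and 1201 times within mouse 1 (332 to 9923), where EV lines held 2 counts in all. These intervals cover counting error only.

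The other genes at the Hist3 cluster were read beside it, having been chosen after their values were seen. Hist3h2bb-ps, an H2B pseudogene on the minus strand at chr11:58954048-58954512, lies between both members. It was at 1.20, 1.07 and 1.12 CPM in EV lines of mouse 1, at 10.4, 4.33 and 3.70 CPM in EV lines of mouse 2 and between 20.3 and 32.6 CPM in BCR-ABL1 lines, in the same order of groups as Hist3h2ba and without overlap. Its log2 difference between the conditions was 2.80 (edgeR adjusted p = 0.00661). Hist3h2a, the H2A gene of the cluster, was at 4.799, 5.33 and 5.57 CPM in EV lines of mouse 1, at 23.2, 24.3 and 7.45 CPM in EV lines of mouse 2, and between 9.05 and 11.7 CPM in BCR-ABL1 lines. It thus lay above the BCR-ABL1 lines in EV 2A and 2B, and its log2 difference between the conditions was -0.15 ± 0.44 (SE, edgeR adjusted p = 1.00). The median line of Hist3h2a was at 6.51 CPM in EV and at 10.7 CPM in BCR-ABL1, so the sign of its difference depends on the measure. Hist3h2a overlaps Trim17 on the same strand, which was at or below 0.318 CPM in every line. Rnf187, which lies next to Hist3h2ba on the other side, was at 101 to 160 CPM in all 12 lines (log2 difference 0.18, edgeR adjusted p = 1.00).

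**Figure D3:**
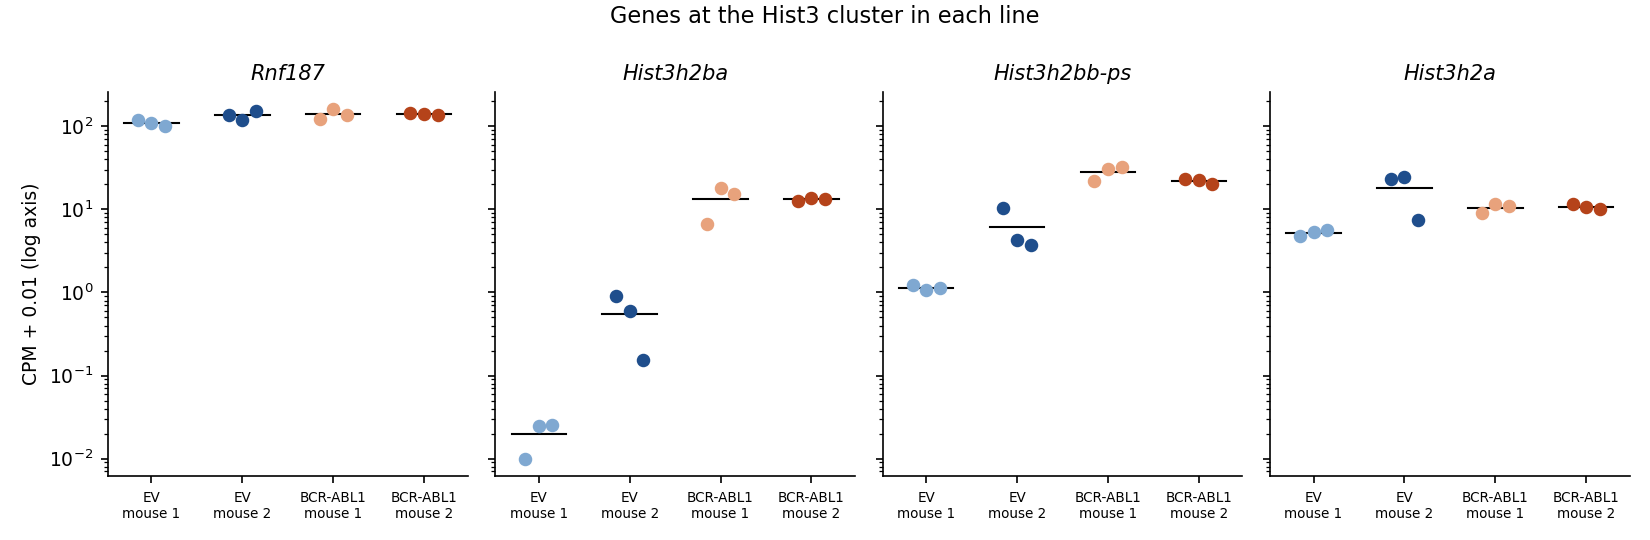
Level of Rnf187, Hist3h2ba, Hist3h2bb-ps and Hist3h2a in each line, in CPM plus 0.01 on a log axis, in the order in which the genes lie on chromosome 11. Points are lines and horizontal bars are means of 3 lines. Hist3h2ba and Hist3h2bb-ps are lowest in EV lines of mouse 1 and highest in BCR-ABL1 lines, while Rnf187 stays between 101 and 160 CPM.

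Next, the EV lines of mouse 2 were compared with those of mouse 1, in a fit of the 4 groups of condition and mouse. Histone genes of every type were higher in mouse 2. By edgeR (glmTreat against a 1.5-fold change), 11 of the 60 were called higher and 0 lower, with 8.23% of all genes called higher and 2.02% lower. At an unadjusted p under 0.05 the numbers were 17 and 0, against 1894 and 593 of all 15038 genes. The difference was positive in 56 of the 60, against 52.3% of all genes, and its median was 0.64 on the log2 scale, against 0.02 over all genes. In 49 of the 60 all EV lines of mouse 2 were above all EV lines of mouse 1, an order found for 16.6% of all genes. By type the median was 0.73 for H4, 0.69 for H1, 0.67 for H2B, 0.58 for H3 and 0.45 for H2A. Along chromosome 13 it was 0.61 in the first stretch of Hist1 and 0.65 in the second. Leaving out 1 line at a time, the number called was between 7 and 18, and 0 were lower each time. It was 7 without EV 1A or EV 2A, where 6.6% and 7.05% of all genes were called higher, and 18 without EV 2C, where 12.8% were. These comparisons rest on 1 mouse against 1 mouse. The fit estimates the spread of a gene over all 4 groups together, although the EV lines of mouse 2 were spread more widely.

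**Figure D4:**
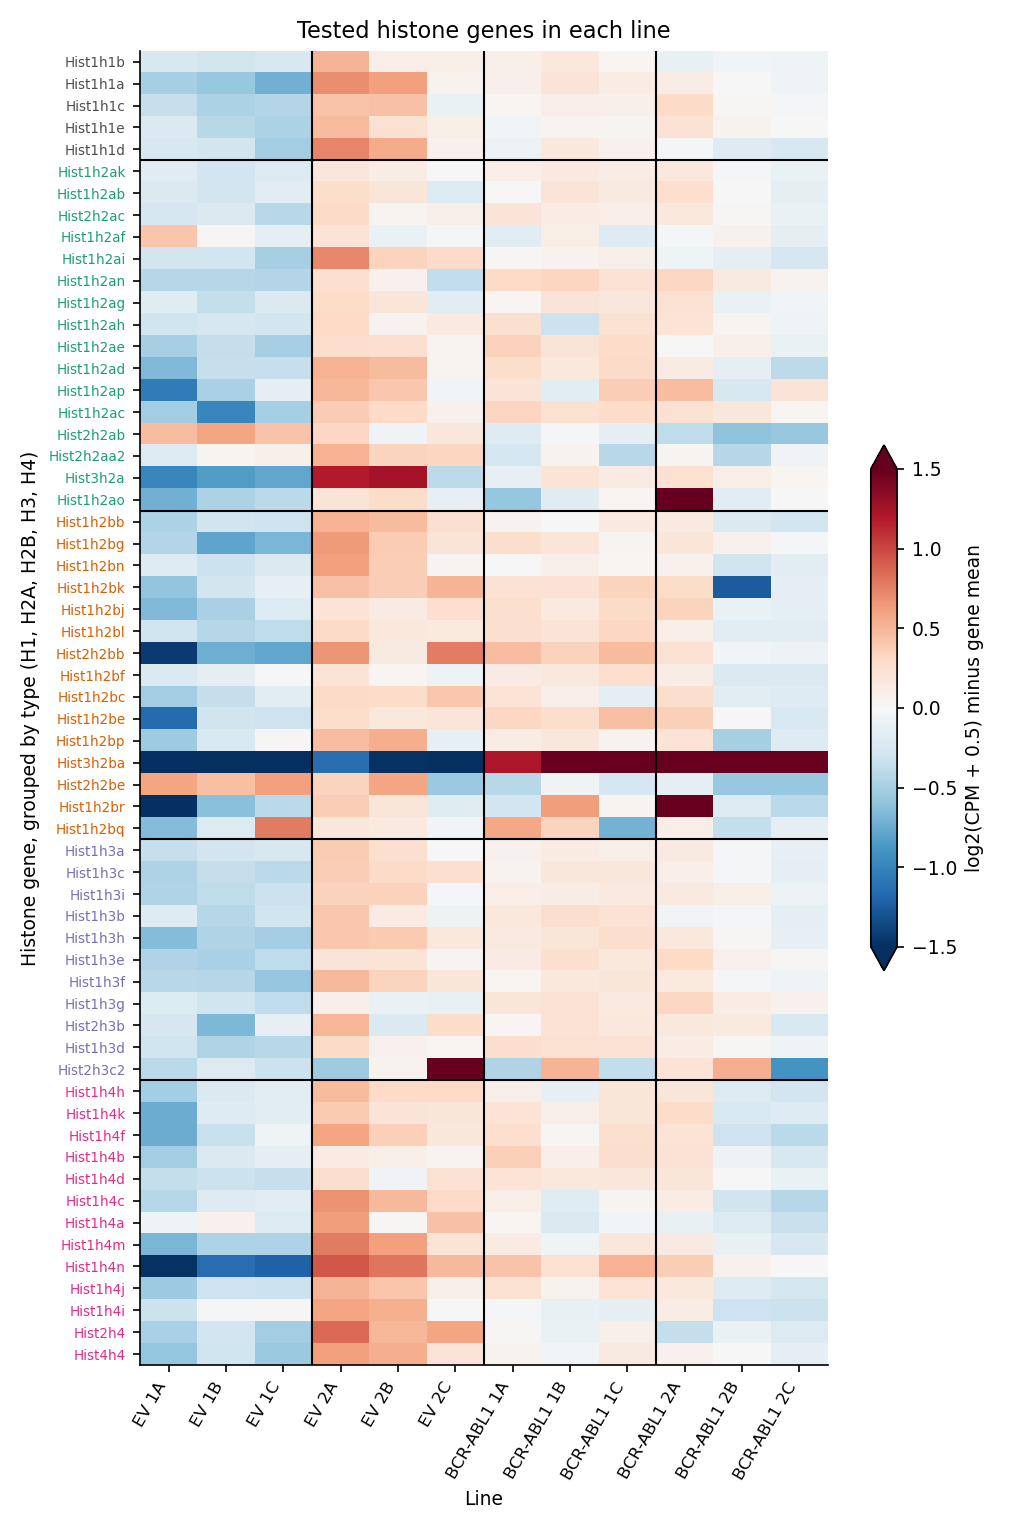
Level of the 60 tested histone genes (rows, grouped by type and ordered by level within it) in each of the 12 lines (columns), as log2(CPM + 0.5) minus the mean of the gene, with the color scale cut at -1.5 and 1.5. Most rows are blue in the 3 EV lines of mouse 1 and red in EV 2A and 2B, and Hist3h2ba separates the conditions.

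Besides Hist3h2ba, the 11 called genes were Hist1h4n, Hist1h4m, Hist2h4 and Hist4h4 of type H4, Hist3h2a and Hist1h2ac of type H2A, Hist2h2bb and Hist1h2bg of type H2B, Hist1h3h of type H3 and Hist1h1a of type H1. Those among them that lie in Hist1, other than Hist1h2bg and Hist1h1a, were chosen after their values were seen. Hist1h4n, an H4 gene that shares windows with Hist1h4m, was at 146, 185 and 176 CPM in EV lines of mouse 1 and at 776, 715 and 570 CPM in EV lines of mouse 2. BCR-ABL1 lines were at 411 to 585 CPM, between both EV groups in all but 1 line. The log2 difference between the EV groups was 2.03 (edgeR adjusted p = 1.71e-05). Hist1h1a, a linker histone gene whose windows are found in no other gene, was at 972, 929 and 834 CPM in EV lines of mouse 1 and at 2226, 2110 and 1426 CPM in EV lines of mouse 2, a log2 difference of 1.08 (edgeR adjusted p = 0.0110). BCR-ABL1 lines were at 1311 to 1568 CPM.

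Hist2h4, the H4 gene of Hist2 with a form of the stem-loop held by only 1 other gene, was at 219, 252 and 213 CPM in EV lines of mouse 1 and at 552, 433 and 461 CPM in those of mouse 2. The log2 difference was 1.08 (edgeR adjusted p = 0.00224). Hist4h4, alone on chromosome 6, was at 153, 186 and 155 CPM against 352, 335 and 263 CPM, with a log2 difference of 0.94 (edgeR adjusted p = 0.0187). Groups did not overlap in either gene, so the difference was also seen far from the Hist1 cluster. Hist2h2bb, which overlaps Gm42743 on its own strand and Gm20628 on the other and has no window of its own, had a log2 difference of 1.496 (edgeR adjusted p = 0.00224). That of Hist3h2a was 1.80 (edgeR adjusted p = 0.0127). For Hist3h2ba the summed counts gave a level 45.4 times as high in EV lines of mouse 2 (95% interval 12.1 to 382), with 67 counts against 2.

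The 4 genes without a positive difference were Hist1h2af with -0.09, Hist1h2bq with -0.02, Hist2h2ab with -0.35 and Hist2h2be with -0.37 on the log2 scale. In Hist2h3c2, an H3 gene that shares windows with Hist2h3b and Hist2h3c1, EV 2C alone was high, with 196 CPM against 36.7 to 55.4 CPM in the other EV lines.

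BCR-ABL1 lines of both mice were close to each other. By edgeR (glmTreat) 0 of the 60 were called higher or lower in mouse 2, against 1.5% and 1.16% of all genes. At an unadjusted p under 0.05 the numbers were 1 higher and 0 lower, against 564 and 463 of all 15038 genes. The median difference was -0.14 on the log2 scale, with 51 negative. Over all 15038 genes the median was -0.0020, with 7568 negative, so most histone genes lay slightly lower in mouse 2. In 11 of the 60 all lines of mouse 1 were above all lines of mouse 2, against 18.7% of all genes. Hist3h2ba had a ratio of 1.04 between the mice (95% interval 0.974 to 1.10).

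For most histone genes the difference of the conditions was positive in mouse 1 and negative in mouse 2, where hardly any passed a test. Within mouse 1 the log2 difference of BCR-ABL1 and EV lines was positive in 56 of the 60, with a median of 0.50, and within mouse 2 it was negative in 54, with a median of -0.28. The respective medians over all genes were -0.02 and -0.0016, with 7517 of 15395 genes positive in mouse 1 and 7715 of 15400 negative in mouse 2. In mouse 1 edgeR called 10 higher and 1 lower, against 16.3% and 12.2% of all genes, and 48 of the 60 had all BCR-ABL1 lines above all EV lines, against 36.5%. The lower one was Hist2h2be. In mouse 2 it called 1 higher, Hist3h2ba, and 0 lower, against 3.99% and 2.65%. At an unadjusted p under 0.05 the numbers were 1 and 1, against 1295 and 1432 of all 15400 genes. There 19 of the 60 had all BCR-ABL1 lines below all EV lines, against 22.9%. The comparison within mouse 2 holds the widely spread EV lines of that mouse and was not repeated without EV 2C. Both comparisons share lines with those above and are not independent of them.

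Tested directly, the interaction of mouse and condition was called in 40 of the 60 genes by edgeR (glmQLFTest), each time negative, that is with a lower difference of BCR-ABL1 and EV lines in mouse 2. The spread was again estimated over all 4 groups together. Among all genes 10.8% had a negative and 16.9% any interaction. By type these were 5 of 5 tested H1 genes, 11 of 13 H4, 8 of 11 H3, 9 of 15 H2B and 7 of 16 H2A. The median over the 60 was -0.77 on the log2 scale, against -0.03 over all genes. In 34 of the 60 genes EV lines of mouse 1 had the lowest and EV lines of mouse 2 the highest mean of the 4 groups, against 6.4% of all genes. Without BCR-ABL1 2C the number with an interaction was 25, against 8.38% of all genes with a negative one, and without EV 2C it was 48, against 20.5%, with 0 positive each time. It was between 32 and 40 under the other normalizations. Among the most abundant genes, the interaction was -0.79 for Hist1h4h (edgeR adjusted p = 0.0224), -0.95 for Hist1h2bb (adjusted p = 0.00444), -0.60 for Hist1h3a (adjusted p = 0.0212) and -0.42 for Hist1h2ak (adjusted p = 0.0417). Of the 15 genes named by level, the one not called was Hist1h2ab, with -0.38 (edgeR adjusted p = 0.219).

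**Figure D5:**
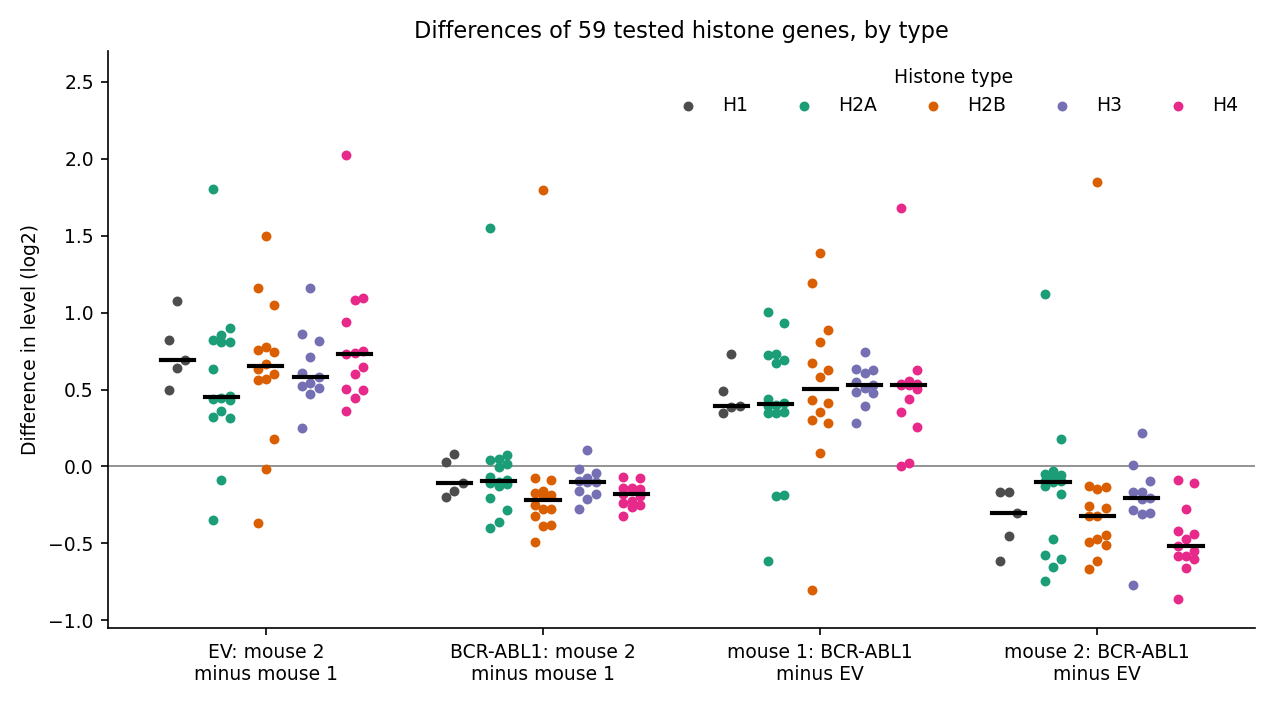
Log2 differences of 59 tested histone genes in 4 comparisons, by histone type. Each point is a gene and the black line is the median of the type, while Hist3h2ba lies beyond the axis in 3 of the comparisons and is left out of all 4. Most genes are above 0 between the EV lines of the mice and within mouse 1, and below 0 between the BCR-ABL1 lines and within mouse 2.

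How far the values rest on sequence was described by splitting the genes on features that no count was used for. The 38 tested genes with at least 50% of windows found in no other gene had a median EV difference between the mice of 0.64 and an interaction in 31, and the 22 with fewer had 0.68 and 9. With a stem-loop in the model (39 genes) the median EV difference was 0.73 and the interaction was called in 29, and without one (21 genes) it was 0.54 and 11. With the octamer in the promoter (10 genes) the median was 0.77, and with a promoter without it (44 genes) it was 0.61. The differences between these sets were not tested.

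Genes that make and handle histone transcripts were not called between the conditions against a 1.5-fold change. Of the 19 genes for synthesis and processing of histone mRNA, edgeR (glmTreat) called 0 in either direction between BCR-ABL1 and EV lines. Over all genes 5.99% were called higher and 6.49% lower. At an unadjusted p under 0.05, 1 of the 19 was lower, and DESeq2 called 0. Against no change edgeR called 3 higher and 3 lower, with 3389 and 3897 of all 15038 genes. Slbp, which encodes the protein that binds the stem-loop, was at 311, 306 and 320 CPM in EV lines of mouse 1 and at 221, 202 and 248 CPM in EV lines of mouse 2, and between 290 and 357 CPM in BCR-ABL1 lines. It was thus lowest where histone transcripts were highest. The log2 difference between the conditions was 0.20 (edgeR adjusted p = 1.00) and the interaction was 0.60, of opposite sign to that of the histone genes (edgeR adjusted p = 0.0110). Npat, the activator of histone transcription, was at 62.9, 73.9 and 83.3 CPM (lowest, median and highest line) in EV and at 80.1, 81.1 and 85.8 CPM in BCR-ABL1, with an interaction of 0.20 (edgeR adjusted p = 0.200). Between the EV groups 16 of these 19 genes were negative. The single one called was Zfp473, which encodes a zinc finger protein of the U7 complex and was chosen after its values were seen, with a log2 difference of -1.06 (edgeR adjusted p = 0.0127).

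Likewise 0 of 22 histone chaperone genes were called between the conditions by edgeR, against 5.99% of all genes called higher and 6.49% lower. At an unadjusted p under 0.05 the number was 0, and DESeq2 also called 0. Against no change edgeR called 6 of the 22 higher and 5 lower, with 3389 and 3897 of all 15038 genes. Between the EV groups 18 of the 22 were negative. Of the 46 S phase genes 0 were called between the conditions, with the same shares over all genes. The number was also 0 at an unadjusted p under 0.05 and by DESeq2. Smaller differences were present, since 38 of the 46 were positive, with a median log2 difference of 0.22 against -0.02 over all genes. Against no change edgeR called 11 of the 46 higher and 1 lower. Between the EV groups 45 of the 46 were negative, with a median of -0.42 on the log2 scale and 1 called lower. Of all 15038 genes 7171 were negative there and 2.02% were called lower. A positive interaction was called in 14 of the 46 and a negative one in 0, against 918 and 1618 of all 15038 genes.

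Among the replacement histones, 2 of 10 tested genes were called higher in BCR-ABL1 lines and 0 lower (edgeR, 0 lower also at an unadjusted p under 0.05 and by DESeq2). Over all genes 5.99% were called higher and 6.49% lower. Against no change edgeR called 4 of the 10 higher and 1 lower, with 3389 and 3897 of all genes. H2afy, which encodes macroH2A1 and was chosen after its values were seen, had levels from 332 to 384 CPM in EV lines and from 697 to 769 CPM in BCR-ABL1 lines without overlap, a log2 difference of 1.04 (edgeR adjusted p = 2.18e-05), and it was alike in both mice with an interaction of -0.05 (adjusted p = 0.830). H1f0, the gene of the linker histone H1.0, had 1 count in all in EV lines of mouse 1. It was at 2.12, 5.70 and 1.14 CPM in EV lines of mouse 2, at 4.39, 9.24 and 5.98 CPM in BCR-ABL1 lines of mouse 1 and at 114, 100 and 103 CPM in those of mouse 2. The log2 difference between the conditions was 5.26 (edgeR adjusted p = 0.0305), and it passed the threshold no longer without EV 2A or without any 1 of the BCR-ABL1 lines of mouse 2, with adjusted p between 0.0510 and 0.0646. From summed counts its level was 34.9 times as high in BCR-ABL1 as in EV lines within mouse 2 (95% interval 31.6 to 38.5). H2afz and H2afx, which encode H2A.Z and H2A.X, had log2 differences of 0.35 and 0.01 and were not called.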

How the data were processed

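RNA of 12 lines was sequenced with strand-specific total RNA libraries and paired-end reads of 150 bp. The authors deposited whole-number read counts for 51826 genes in the 12 lines, without normalization or pooling. The submitters' processing notes name FastQC 0.11.5, Trimmomatic 0.36, TopHat2 2.1.1, Bowtie2 2.3.2, featureCounts 1.5.3, R 3.6.1, edgeR 3.18.1 and the build GRCm38, without their settings. The strand setting, the treatment of reads with several matches and the annotation release are not given in the sources used here. Symbols, positions and transcripts were taken from GENCODE M21, which held 51633 of the identifiers, and promoters from RefSeq, where an entry was used only on the strand of the gene and near its start.

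Counts were analysed in R 4.3.3 with edgeR 4.0.16 and limma 3.58.1. After filterByExpr 15038 genes were left, TMM factors were computed and a quasi-likelihood model was fitted. Calls are those of glmTreat against a 1.5-fold change with Benjamini-Hochberg adjusted p under 0.05, fitted on the whole table. The mice were compared in a model of 4 groups, the interaction was tested with glmQLFTest, and effects within a mouse come from its 6 lines alone. The 4 groups share the same estimate of spread, so its p-values do not measure the wider spread of the EV lines of mouse 2 by itself. CPM values are scaled by TMM. Log2 differences come from the fit, whereas each SE comes from the spread of the log2 CPM of the lines within the conditions. Single genes were also tested by exact permutation over the 924 labelings. Count ratios have 95% exact intervals for counting error only, since reads are not independent molecules, and 3 counts per line were taken as the floor. DESeq2 1.42.0 was an alternative, and matplotlib 3.10.9 (Python 3.11.15) was used for the figures. The fits were also run on simulated data in which all groups of lines had the same spread. These runs do not cover the wider spread of the EV lines of mouse 2.

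The members, gene lists and tests were chosen with earlier results of these data known. Genes named are the 3 most abundant tested members of each type, called members, tested members outside Hist1, called genes of the lists with the largest change, Slbp and Npat, and members at either end of window sharing, and any other is marked or was named for its sequence.

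EV and BCR-ABL1 lines share the numbers 1A to 2C, where the digit is the mouse. What remained of each line after its condition's mean was subtracted correlated at 0.0853 to 0.240 between conditions within a mouse. By mouse the lines were thus weakly paired. Across mice the correlation was -0.203 to -0.0636, which is not separate support, since subtracting a mean ties the 2 ranges. After removal of mouse means, lines of the same letter correlated between -0.109 and 0.0856, so no pairing by letter was seen. Chi-square per gene between lines of one mouse and condition was at least 9.96, and no line was counted as a copy of another.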

Additional observations from a re-analysis of the deposited data

Results flagged for a closer look

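The interaction of mouse and condition was called in 40 of 60 tested histone genes by edgeR (glmQLFTest), so that their difference between BCR-ABL1 and EV lines was not the same in both mice. Among the named H1 genes its log2 value was -0.66 for Hist1h1b, -1.18 for Hist1h1a, -0.66 for Hist1h1c and -1.01 for Hist1h1d. It was -0.42 for Hist1h2ak, -0.54 for Hist2h2ac and -1.76 for Hist3h2a among H2A genes. For H2B it was -0.95 for Hist1h2bb, -1.14 for Hist1h2bg, -0.76 for Hist1h2bn, -1.88 for Hist2h2bb and -5.34 for Hist3h2ba, where the fitted value rests on 2 counts in EV lines of mouse 1. For H3 it was -0.60 for Hist1h3a, -0.87 for Hist1h3c and -0.68 for Hist1h3i, and for H4 -0.79 for Hist1h4h, -0.79 for Hist1h4k, -1.06 for Hist1h4f, -0.64 for Hist1h4d, -1.30 for Hist2h4 and -1.01 for Hist4h4. Slbp had a positive one, at 0.60, as did Zfp473, at 1.80.

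In 6 of 80 groups of 6 lines a single line lay far from the rest, where chance flags about 1 in 20 groups. EV 2C had 196 CPM of Hist2h3c2, with the next EV line at 55.4 CPM, and 15.1 CPM of Hist2h2be, with the next at 28.4 CPM. EV 2B had 5.70 CPM of H1f0, with the next at 2.12 CPM. BCR-ABL1 2A had 2567 CPM of Hist1h1c, with the next at 2250 CPM, and 357 CPM of Slbp, with the next at 308 CPM. BCR-ABL1 2C had 884 CPM of Hist1h3i, with the next at 1004 CPM.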

How the results depend on the processing

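With mouse as replicate block, and likewise with line number as replicate block, 1 histone gene was called higher and 0 lower in BCR-ABL1 lines, so the paired fits changed no call on a histone gene. Hist3h2ba was the gene called in each setting. Against no change 3 were higher and 2 lower, while over all genes 3389 were higher and 3897 lower in place of 901 and 976. With the lines of mouse 1 alone 10 were higher and 1 lower, and Hist3h2a turned from a negative to a positive log2 difference of 1.01 (edgeR adjusted p = 0.00314). RLE, library size alone, TMM without histone genes and the highest 1% of genes, both gene filters, the likelihood ratio fit, DESeq2 and mouse 2 alone gave 1 and 0. Leaving out 1 line at a time gave 1 higher and between 0 and 1 lower. Between the mice, the numbers called lay between 7 and 18 within EV, at 0 within BCR-ABL1 and between 25 and 48 for the interaction when 1 line was left out. Without a gene filter 2 were called within BCR-ABL1. Normalization by library size alone and TMM without histone genes and the highest 1% of genes were added for the mice after seeing the data. With library size alone 8 were called within EV and 32 had an interaction, and the median EV difference of all genes moved from 0.02 to -0.12 with that of the histone genes at 0.49. The cause of these changes was not tested.

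Only 2 mice were used, and lines of a mouse share its cells. The counts say little on single genes that share sequence, or on the levels of types against each other, since the handling of reads with several matches is not given. Hist3h2ba at 0 to 1 count per line in EV lines of mouse 1 was not detectable at this depth, which does not show that it was absent.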

Other observations

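Single lines stood apart in genes that no comparison above named, and these were chosen after their values were seen. In BCR-ABL1 2A, Hist1h2br was at 65.2 CPM, against 0.828 to 10.0 CPM in the other 11 lines. Hist1h2ao, an H2A gene at chr13:21810465-21810944 close to it, was at 10.1 CPM in the same line and at 0.960 to 2.40 CPM in the others. Hist1h4n, which lies between both, was at 528 CPM there and at 411 to 585 CPM in the other BCR-ABL1 lines. Hist1h2br has spliced transcripts in its annotation, and both genes share sequence with other members. In BCR-ABL1 2B, Hist1h2bk, an H2B gene, was at 379.5 CPM, with the other BCR-ABL1 lines at 824 to 1135 CPM.

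H1fx, the replacement gene of the linker histone H1.10, was at 0.0188, 0 and 0 CPM in EV lines of mouse 1, at 12.2, 3.93 and 0.198 CPM in EV lines of mouse 2 and between 0.366 and 0.932 CPM in BCR-ABL1 lines. Hist3h2ba, H1f0 and H1fx were thus all at or below 1 count per line in EV lines of mouse 1 and above it in every other line. A difference between H1fx in BCR-ABL1 and EV lines was not called (edgeR adjusted p = 0.619), and the interaction was (adjusted p = 0.00555).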
